A study of Mus musculus and Homo sapiens with 20 samples.

Results

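The genes described here are 4 small heat shock protein genes or relatives (HSPB1, HSPB8, CRYAB and HSPB11) and the 6 BAG genes (BAG1 to BAG6). They were chosen by matching these 10 symbols, ignoring case, in each of 3 tables of RNA-seq counts, of 63568 genes for human K562 and 43626 genes each for mouse MEF and HPC-7. All 10 were found in each table. In K562 the symbol BAG6 stood on 7 rows and CRYAB on 2, of which only 1 row each held any count, and that row was used. K562 is an established human line from chronic myeloid leukaemia, HPC-7 is a blood precursor line of the mouse and MEF are fibroblasts from mouse embryos. Each line had 3 Control libraries and 3 libraries of cells given NVP-AUY922 (HSP90i), which blocks the ATP pocket of the chaperone HSP90. HPC-7 received 50 nM, MEF 200 nM and K562 300 nM, each over 16 h, so that the line and the dose cannot be told apart. The count columns call the Control libraries DMSO, the solvent. No genetic change is named in the labels for any group, and they do not say whether the libraries of a group came from separate cultures. The p-values therefore rest on the spread between these libraries, which could be technical.

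Small heat shock proteins bind partly unfolded proteins without using ATP and hold them in a state from which HSP70 can refold them. HSPB1 (HSP27), HSPB8 (HSP22) and CRYAB (alpha-B crystallin) belong to this family, and muscle, heart and lens are known for high levels of several members. HSPB11 carries the family's name but is better known as IFT25, a subunit of the IFT-B particle that moves cargo in cilia. Most BAG proteins, though not BAG6, have a domain that binds HSP70 and releases its nucleotide, and their other domains steer the client. BAG1 is known for links to the proteasome, BAG3 for pairing with HSPB8 and for delivering clients to autophagy, and BAG2 for inhibiting the ubiquitin ligase CHIP. BAG4 is also called SODD, BAG5 carries several BAG domains, and BAG6 is known for guiding tail-anchored membrane proteins and for quality control of proteins that fail to insert. HSPB1, CRYAB and BAG3 are known targets of HSF1, the transcription factor of the heat shock response, which HSP90 holds inactive in unstressed cells.

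HSF1 binds heat shock elements, which are inverted repeats of a short unit. The promoter windows of the mouse genes (RefSeq, GRCm38.p6, from 250 bases before to 50 after the annotated start) were searched for a pair of inverted units, GAANNTTC or TTCNNGAA. Each form reads the same on both strands. Windows were found for 8 of the 10 members, and Cryab and Bag4 had none. Such a pair lay in the windows of Hspb1, Hspb8 and Bag3, and in 15.1% of all 32851 windows. None lay in those of Bag6 and Hspb11, also called higher in MEF, or of Bag2 and Bag5, called lower there. The windows of Hspb1 and Bag3, which rose in MEF, and of Hspb8, which had no call there, are printed below with each pair in capitals. That of Bag1, with no pair and no call, stands beside them. They lie at chr5:135887669-135887968 (Hspb1, plus strand), chr7:128523333-128523632 (Bag3, plus strand), chr5:116422815-116423114 (Hspb8, minus strand) and chr4:40948245-40948544 (Bag1, minus strand), each read 5′ to 3′ along the gene.
Hspb1: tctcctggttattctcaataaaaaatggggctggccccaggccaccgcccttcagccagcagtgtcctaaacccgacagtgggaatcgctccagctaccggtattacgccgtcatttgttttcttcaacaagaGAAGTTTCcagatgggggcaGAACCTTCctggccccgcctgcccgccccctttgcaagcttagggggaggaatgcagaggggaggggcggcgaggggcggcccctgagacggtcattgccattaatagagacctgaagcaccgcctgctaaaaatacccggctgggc
Bag3: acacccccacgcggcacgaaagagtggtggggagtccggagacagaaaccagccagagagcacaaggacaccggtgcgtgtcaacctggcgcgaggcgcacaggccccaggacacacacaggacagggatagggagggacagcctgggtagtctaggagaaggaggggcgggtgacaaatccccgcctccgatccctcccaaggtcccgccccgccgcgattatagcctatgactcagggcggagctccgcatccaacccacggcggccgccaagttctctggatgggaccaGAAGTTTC
Hspb8: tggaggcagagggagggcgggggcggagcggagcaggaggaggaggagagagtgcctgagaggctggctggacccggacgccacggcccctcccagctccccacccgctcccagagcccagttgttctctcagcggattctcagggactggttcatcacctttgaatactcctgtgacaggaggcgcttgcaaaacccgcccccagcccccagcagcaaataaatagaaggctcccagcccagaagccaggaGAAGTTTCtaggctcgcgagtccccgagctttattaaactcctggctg
Bag1: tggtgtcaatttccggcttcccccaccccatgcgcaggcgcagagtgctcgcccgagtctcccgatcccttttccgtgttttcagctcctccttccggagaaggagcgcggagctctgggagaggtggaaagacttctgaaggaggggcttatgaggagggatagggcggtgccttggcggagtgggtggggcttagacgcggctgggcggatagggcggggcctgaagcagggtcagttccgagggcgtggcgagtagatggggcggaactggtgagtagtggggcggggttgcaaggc

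Hspb1 held 2 pairs, GAAGTTTC from -117 to -110 and GAACCTTC from -97 to -90, where the start is counted as 1. In Bag3 and Hspb8 the pair was downstream of the start, at 43 to 50 and at 3 to 10. All 3 windows carried the same 8 letters, GAAGTTTC. This word was picked because these windows share it, so its presence in them is no test. On either strand it stood in 1.21% of all windows. A run of 3 units (GAANNTTCNNGAA or TTCNNGAANNTTC) was in 0 of the 8 members' windows and in 0.603% of all windows. A match is a description of letters in a window and shows no binding. No human promoter was searched here.

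**Figure D1:**
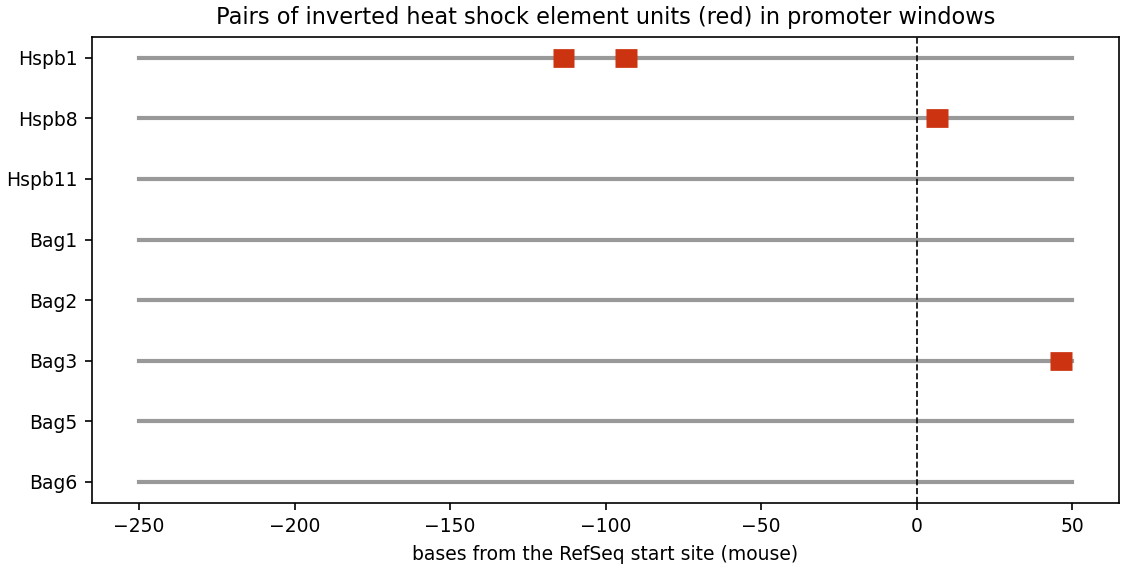
Positions of pairs of inverted heat shock element units (red blocks) in the mouse promoter windows of 8 members, with the distance from the annotated start in bases on the horizontal axis and the start as a dashed line. Hspb1 has 2 pairs upstream of its start, Hspb8 and Bag3 have 1 each downstream, and the other windows have none.

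The depth of a K562 library lay between 7936066 and 10950573 counts, that of MEF between 10542305 and 22872539, and that of HPC-7 between 10131491 and 16859394. K562 Control replicate 1 stood apart from the other K562 controls. Its gene counts differed from theirs by a chi-square per degree of freedom of 43.6 and 55.2, against 5.43 between the other pair, so the K562 values of the members and the counts of the K562 lists are also given without it. Left out, it gave 14.0% of all 13709 tested genes as higher and 14.6% as lower. By the same measure MEF Control replicate 3 differed from the other MEF controls by 11.2 and 11.1, against 3.45 between those. Pairs of treated HPC-7 libraries differed by 9.07 to 16. Defining markers matched the labels in part. K562 expressed the erythroid gene GATA1 (198.8 ± 67.7 counts scaled to library size, CPM, mean and SD of 3 controls), and the fibroblast genes COL1A2 and TWIST2 were at 0. Low levels of COL1A1 (6.25 ± 0.647 CPM) and FN1 (6.26 ± 2.92 CPM) were present, however, as were the epithelial markers KRT18 (316.2 ± 129 CPM), KRT8 (205 ± 49.8 CPM) and EPCAM (43.1 ± 7.66 CPM). In MEF all 6 fibroblast markers were detected, with Col1a1 at 5697 ± 91.1 CPM. Of the list for blood precursors, however, Cd34 (181.1 ± 17.8 CPM) and Gata2 (23.5 ± 0.922 CPM) were also present. Kit was at 2.47 ± 4.20 CPM, uneven between the MEF controls. In HPC-7 all 6 precursor markers were detected, with Kit at 986.6 ± 23.9 CPM and Twist2 at 0, but Pdgfrb, on the fibroblast list, was at 191.5 ± 12.4 CPM. Levels are CPM scaled within a line by TMM, a method that corrects for differences in library makeup, and they are not divided by gene length, so they are compared between groups and not between genes.

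In K562 the inhibitor was followed by higher HSPB1, BAG2 and BAG3 and by CRYAB reads that the controls almost lacked. BAG3 rose 7.47-fold and HSPB1 6.30-fold, and they stood 14th and 19th by log2 fold change among 13456 tested genes, while BAG2 rose 2.39-fold. Of the 10 members 9 could be tested, 4 were higher, 0 lower and 5 not called, and HSPB8 had too few counts. Among all tested genes 5.11% were higher and 5.97% lower by the same rule, an adjusted p under 0.05 (Benjamini-Hochberg) in the quasi-likelihood test of edgeR. CRYAB entered the test only through its treated libraries, so its place in this count was set by the filter on low counts. The median log2 fold change of the tested members, CRYAB among them, was 0.10, against -0.02 over all tested genes.

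HSPB1 (ENSG00000106211.8), which shields actin filaments and unfolding proteins, was at 141.4, 68.6 and 59.4 CPM in the K562 controls and at 576.4, 632.5 and 490.3 CPM after HSP90i. The treated libraries were all far above the controls, of which Control replicate 1 was the highest. The log2 fold change was 2.66 ± 0.32 (SE, adjusted p = 0.00197, edgeR's quasi-likelihood test), and 3.14 without that library. CRYAB had 0, 1 and 0 reads in the controls and 40, 23 and 27 after HSP90i, up to 3.79 CPM. Summed over libraries the ratio was 91.7, with a 95% counting interval from 16.1 to 3660, which covers counting error only. Without Control replicate 1 CRYAB again entered the test only through its treated libraries, so its call there adds no support. HSPB8 had 1 read in the 3 controls together and 1 in the 3 treated libraries. At that depth, 3 counts over a group correspond to 0.103 CPM in the controls and 0.0977 CPM in the treated libraries, and no change in HSPB8 was detectable. HSPB11 was at 59.9 ± 8.87 CPM in the controls and 52.0 ± 6.46 CPM after HSP90i (log2 fold change -0.20 ± 0.16, adjusted p = 0.458 by the same edgeR test, and -0.09, adjusted p = 0.603, without that library), with overlapping groups.

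Among the BAG genes of K562, BAG3 (ENSG00000151929.5) had 41.4, 31.0 and 34.2 CPM in the controls and 267.7, 284.5 and 243.8 CPM after HSP90i. The lowest treated library lay far above the highest control. Its log2 fold change was 2.90 ± 0.16 (adjusted p = 2.73e-05, edgeR), and 3.03 without Control replicate 1. BAG2 went from 39.0, 45.3 and 48.5 CPM to 106.7, 114.0 and 96.3 CPM, again with every treated library above every control. The log2 fold change of BAG2 was 1.26 ± 0.14 (adjusted p = 0.00152, edgeR), the 142nd highest of all tested genes, and 1.18 without Control replicate 1.

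BAG1 was lower in each treated K562 library than in any control, at 80.6, 56.4 and 49.0 CPM before and 38.6, 41.2 and 35.9 CPM after. The difference missed the threshold (log2 fold change -0.69 ± 0.19, adjusted p = 0.0559, edgeR). It passed without Control replicate 1, the highest of the controls (-0.45, adjusted p = 0.00505), without Control replicate 3 (-0.83, adjusted p = 0.0206) and under 5 other settings, DESeq2 among them (adjusted p = 0.0192). In 6 of 13 alternatives it again missed the threshold. These included leaving out Control replicate 2 (adjusted p = 0.1132, edgeR) or HSP90i replicate 1, 2 or 3 (adjusted p = 0.1935, 0.1646 and 0.2105, edgeR). BAG6 was at 593.2, 449.1 and 481.1 CPM in the controls and at 563.3, 522.5 and 547.7 CPM after HSP90i, and Control replicate 1 was the highest of the 6 libraries. It was not called with that library (0.10 ± 0.14, adjusted p = 0.687) and was called higher without it (0.23, adjusted p = 0.0370, edgeR). BAG4 (38.3 ± 6.62 to 40.4 ± 5.61 CPM) and BAG5 (32.3 ± 4.12 to 28.7 ± 1.38 CPM) had overlapping groups and no call, and the sign of BAG4 changed when Control replicate 1 was left out (0.08 to -0.02), while BAG5 went from -0.17 to -0.26 (adjusted p = 0.0729, edgeR). Of the 6 erythroid markers 1 was called lower, GATA1 (-0.90 ± 0.22), and of the fibroblast markers COL1A1 was higher (0.73 ± 0.17). Of 5 tested precursor markers 1 was lower, GATA2 (-1.85 ± 0.12, or -1.89 without Control replicate 1). Without that library 2 erythroid markers were higher and 1 lower, 2 of 3 tested epithelial markers were higher (EPCAM, 0.59 ± 0.11, and KRT8, 0.50 ± 0.08) and 3 of 5 tested precursor markers lower. The part of these markers in the results was not tested.

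In MEF Hspb1 rose 6.05-fold, Bag3 1.47-fold, Bag6 1.36-fold, Hspb11 1.27-fold and Cryab 1.15-fold, and Bag2, Bag4 and Bag5 fell. Of the 10 members, all tested, 5 were higher and 3 lower. In this line 35.1% of all 12340 tested genes were higher and 38.2% lower, so the members' counts were close to this background. The members' median log2 fold change was 0.09 against -0.01 over all genes, and their median absolute change 0.496 against 0.503.

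Hspb1 (ENSMUSG00000004951, chromosome 5, 135887919 to 135889563, GRCm38.p6) was at 78.8, 67.6 and 73.2 CPM in the MEF controls and at 474.9, 448.3 and 407.3 CPM after HSP90i. The groups were far apart and the log2 fold change was 2.60 ± 0.08 (adjusted p = 2.72e-08, edgeR), the 212th highest of 12340. Cryab was already at 350.1, 337.2 and 347.9 CPM in the controls and at 399.6, 400.0 and 391.1 CPM after HSP90i, a rise of 1.15-fold (0.20 ± 0.04, adjusted p = 0.00130, edgeR). The rise was small, yet all treated libraries were above all controls. The Cryab span on chromosome 9 (50745951 to 50756636, GRCm38.p6) overlaps that of Hspb2 by 1283 bases and that of 2310030G06Rik by 577, and the labels do not state if reads were counted by strand, so these genes could share reads. Hspb2 went the other way (-0.59 ± 0.09, adjusted p = 0.000488, edgeR).

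Hspb8, the partner of Bag3, was at 88.9, 91.8 and 96.7 CPM in the MEF controls and at 85.2, 90.3 and 86.3 CPM after HSP90i. The groups overlapped and it was not called (-0.08 ± 0.05, adjusted p = 0.182, edgeR), with a sign that depended on the scaling. Its span on chromosome 5 (116408491 to 116422864) overlaps that of the non-coding gene Gm36841. Hspb11 was at 14.7, 18.2 and 11.9 CPM in the controls and at 19.28, 18.02 and 19.40 CPM after HSP90i. It passed the test narrowly (0.35 ± 0.14, adjusted p = 0.0449, edgeR) although 1 treated library lay below a control. It lost the call without Control replicate 1 or without HSP90i replicate 1, 2 or 3 (adjusted p = 0.0760, 0.115, 0.0645 and 0.107).

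Of the MEF BAG genes, Bag3 (ENSMUSG00000030847, chromosome 7, 128523583 to 128546981) was at 111.6, 108.3 and 117.6 CPM in the controls and at 163.7, 170.4 and 162.5 CPM after HSP90i. The groups did not overlap and the rise was 1.47-fold (0.56 ± 0.05, adjusted p = 1.08e-05, edgeR), the 2662nd highest of 12340 genes. Bag6 rose 1.36-fold, from 270.4, 271.6 and 273.1 CPM to 376.8, 370.0 and 358.1 CPM (0.44 ± 0.04, adjusted p = 1.16e-05, edgeR). Bag1 was at 135.2 ± 8.36 CPM in the controls and 132.7 ± 4.29 CPM after HSP90i, with no call (adjusted p = 0.699) and a sign that changed with the scaling.

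Bag5 fell most among the members in MEF, from 34.6, 35.1 and 36.1 CPM to 19.4, 22.3 and 22.5 CPM (-0.73 ± 0.08, adjusted p = 3.20e-05, edgeR). Bag2 fell from 55.9, 56.8 and 54.3 CPM to 40.2, 38.5 and 34.7 CPM (-0.56 ± 0.07, adjusted p = 6.93e-05, edgeR). Bag4 fell from 27.6, 25.6 and 27.9 CPM to 18.7, 16.8 and 19.8 CPM (-0.55 ± 0.08, adjusted p = 0.000281, edgeR). In each of these 3 genes every treated library was below every control. Bag5 lies on chromosome 12 (111709488 to 111713256) and Bag2 on chromosome 1 (33745484 to 33757750), and the span of Bag4 overlaps the non-coding gene Gm17484 by 5165 bases and the pseudogene Gm19075 by 678, with which it could share reads. Of the 6 fibroblast markers 3 were higher and 2 lower, with Col3a1 at 1.16 ± 0.04 and Twist2 at -1.53 ± 0.12, while both tested macrophage markers were higher (Cd68, 2.08 ± 0.243 to 4.58 ± 0.963 CPM, and Csf1r, 3.08 ± 0.547 to 6.79 ± 0.948 CPM). Both tested epithelial markers were higher too, with Cdh1 going from 0.324 ± 0.0488 to 4.53 ± 0.178 CPM. Of the blood precursor list Gata2 was higher (0.63 ± 0.07) and Cd34 lower (-0.22 ± 0.08). Of the muscle list Des was higher (0.385 ± 0.0946 to 1.51 ± 0.198 CPM) and Acta1 was not called (-0.51 ± 0.21, adjusted p = 0.0565, edgeR). Cdh1 and Des entered the test only through their treated libraries, so their place in these counts was set by the filter on low counts. The part of such shifts was not tested. Bag2 was thus called lower in MEF and higher in K562, under different doses and in different species, and that difference was not tested.

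In HPC-7 Hspb1, Hspb8 and Cryab had no read in any of the 6 libraries. With 75632343 counts in all, a count of 0 allows up to 0.0397 CPM (3 counts over the 6 libraries). None of these genes could therefore be tested for a response. Of the 7 tested members 1 was higher (Bag6), 3 were lower (Bag2, Bag4 and Bag5) and 3 were not called. Among all 11703 tested genes 36.5% were higher and 36.6% lower, and the members' count of 3 lower was close to this background. The members' median log2 fold change was -0.19 against -0.002 over all genes, and their median absolute change was 0.272 against 0.558.

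Bag4 fell most in HPC-7, from 68.0, 69.8 and 72.2 CPM in the controls to 33.4, 37.8 and 37.5 CPM after HSP90i. This was 1.93-fold lower (-0.95 ± 0.08, adjusted p = 3.86e-06, edgeR), with no overlap. Bag2 went from 40.2, 40.0 and 39.5 CPM to 21.8, 26.3 and 20.2 CPM (-0.81 ± 0.10, adjusted p = 5.36e-05, edgeR). Bag5 went from 38.2, 40.0 and 38.1 CPM to 25.6, 29.1 and 27.8 CPM (-0.50 ± 0.08, adjusted p = 0.000380, edgeR). Both fell in every treated library relative to every control. Bag6 was at 268.4, 303.4 and 307.7 CPM in the controls and at 394.4, 340.7 and 326.4 CPM after HSP90i (0.27 ± 0.09, adjusted p = 0.0193, edgeR). It lost this call without Control replicate 1 (0.21, adjusted p = 0.0960) or without HSP90i replicate 1, its highest library (0.18, adjusted p = 0.0633).

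Bag3 was at 20.8, 21.5 and 22.9 CPM in the HPC-7 controls and at 26.17, 24.98 and 20.37 CPM after HSP90i. HSP90i replicate 3 lay below all controls and the other treated libraries above them, for a difference of 0.14 ± 0.11 on the log2 scale (adjusted p = 0.282, edgeR). Bag1 (149.2 ± 5.71 to 159.2 ± 14.5 CPM, adjusted p = 0.312, edgeR) and Hspb11 (8.42 ± 0.532 to 7.283 ± 2.002 CPM, adjusted p = 0.380, edgeR) were not called either. Cell identity markers moved in HPC-7 with the treatment. Of the 6 precursor markers 3 rose and 2 fell, with Cd34 at -2.60 ± 0.35 and Kit at 1.35 ± 0.08, and their summed level went from between 2622 and 2666 CPM in the controls to between 4120 and 4526 CPM. Gata1 rose by 2.21 ± 0.12. The part of these shifts in the changes of the BAG genes was not tested, and in bulk RNA fewer cells of a type and less RNA per cell cannot be told apart.

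**Figure D2:**
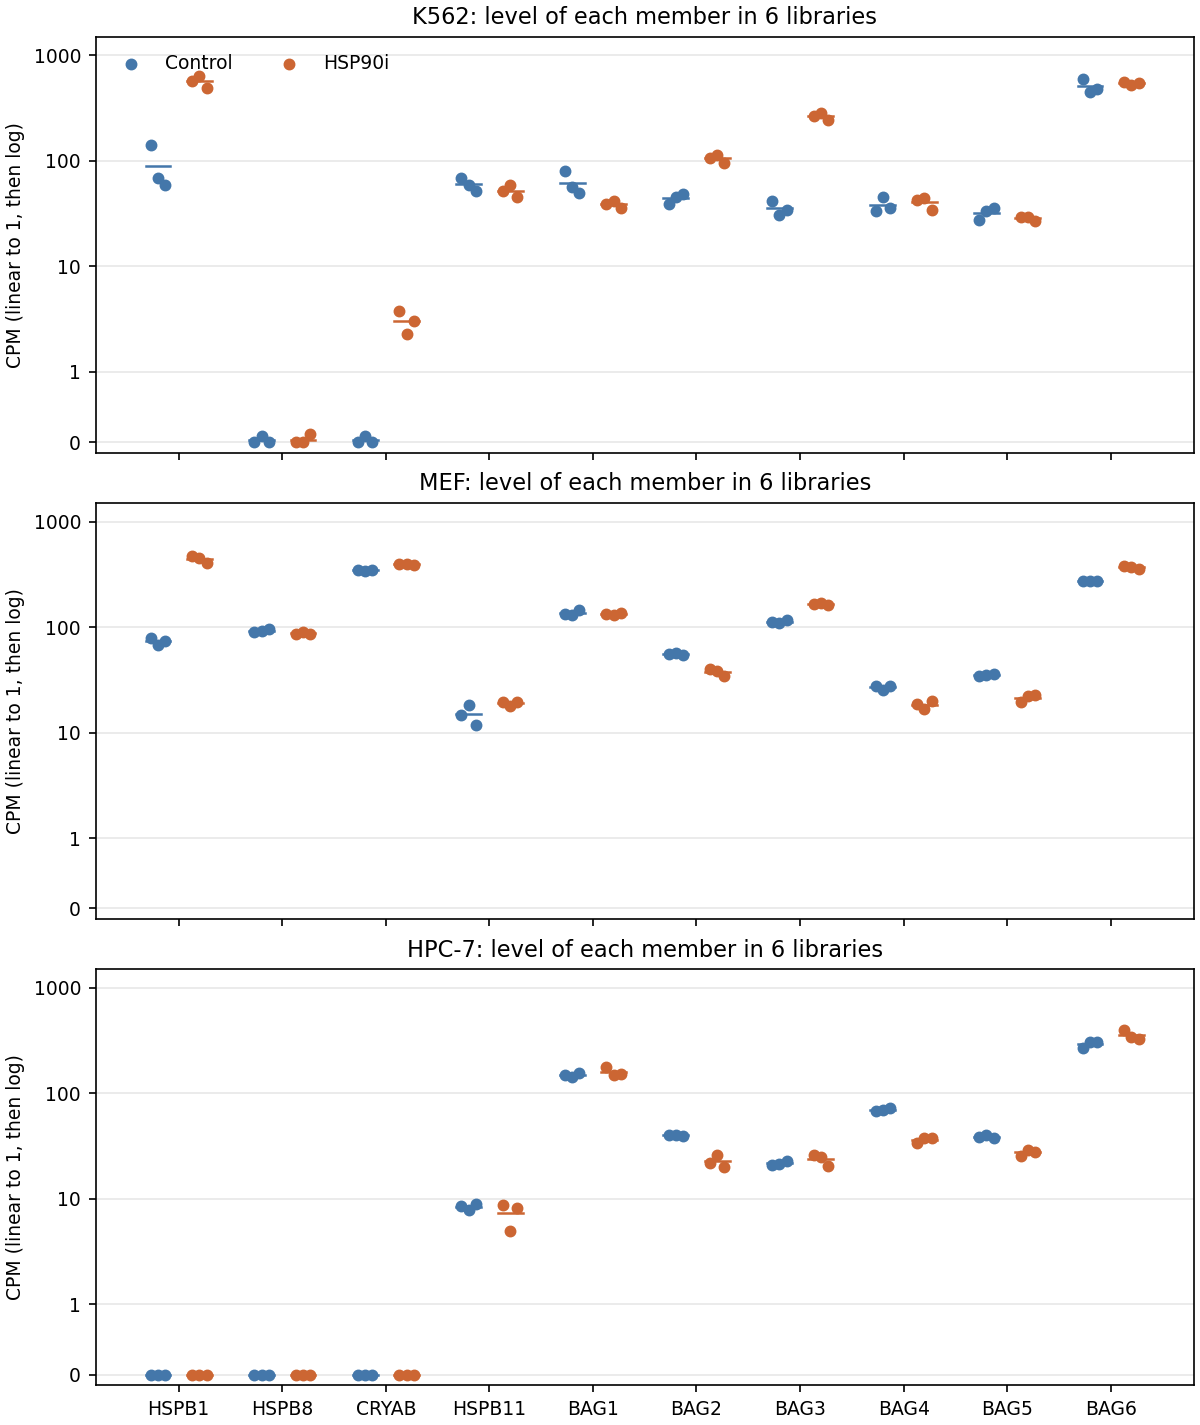
Level of each member in each library of K562, MEF and HPC-7, in CPM on an axis that is linear up to 1 and logarithmic above, with points for the 3 Control (blue) and 3 HSP90i (orange) libraries and a dash at the group mean. HSPB1 rises in K562 and MEF, BAG3 rises far in K562, and HSPB1, HSPB8 and CRYAB lie at 0 in all 6 HPC-7 libraries.

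**Figure D3:**
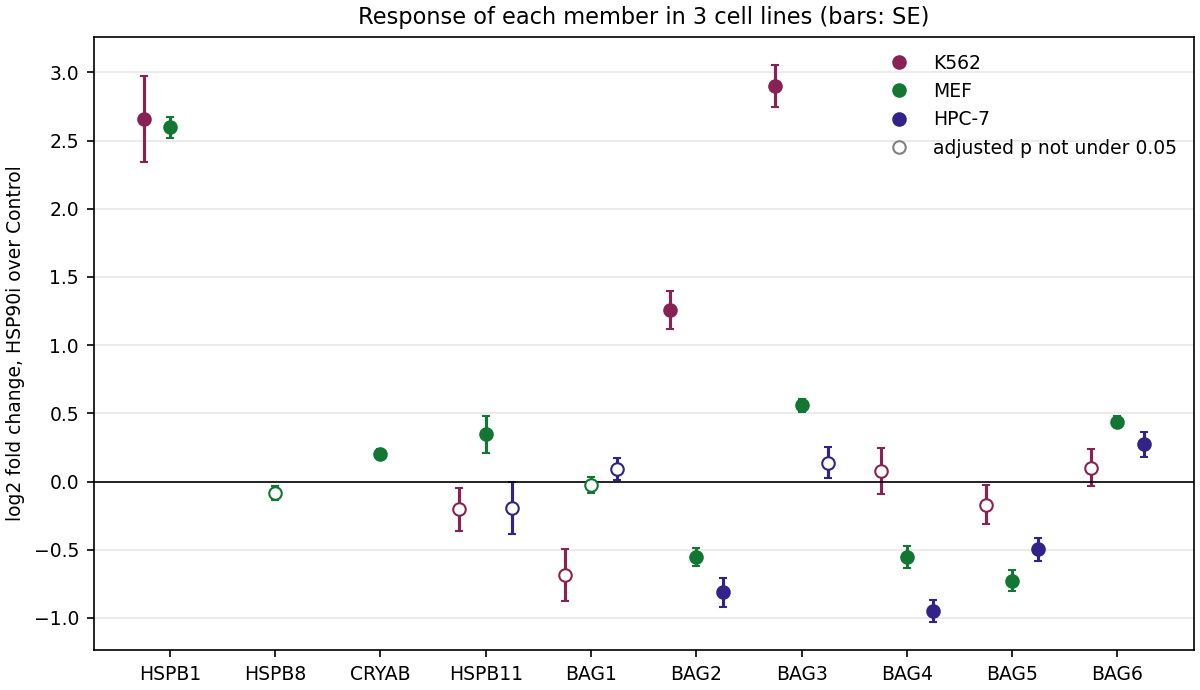
Log2 fold change of each member, HSP90i over Control, in the 3 lines, with bars for the SE and open points where the adjusted p was not under 0.05. K562 CRYAB, whose controls held 1 read, and untested members are left out. BAG2 lies at 1.26 in K562 but below 0 in MEF (-0.56) and HPC-7 (-0.81), and BAG5 lies below 0 in all 3 lines, without a call in K562.

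**Figure D4:**
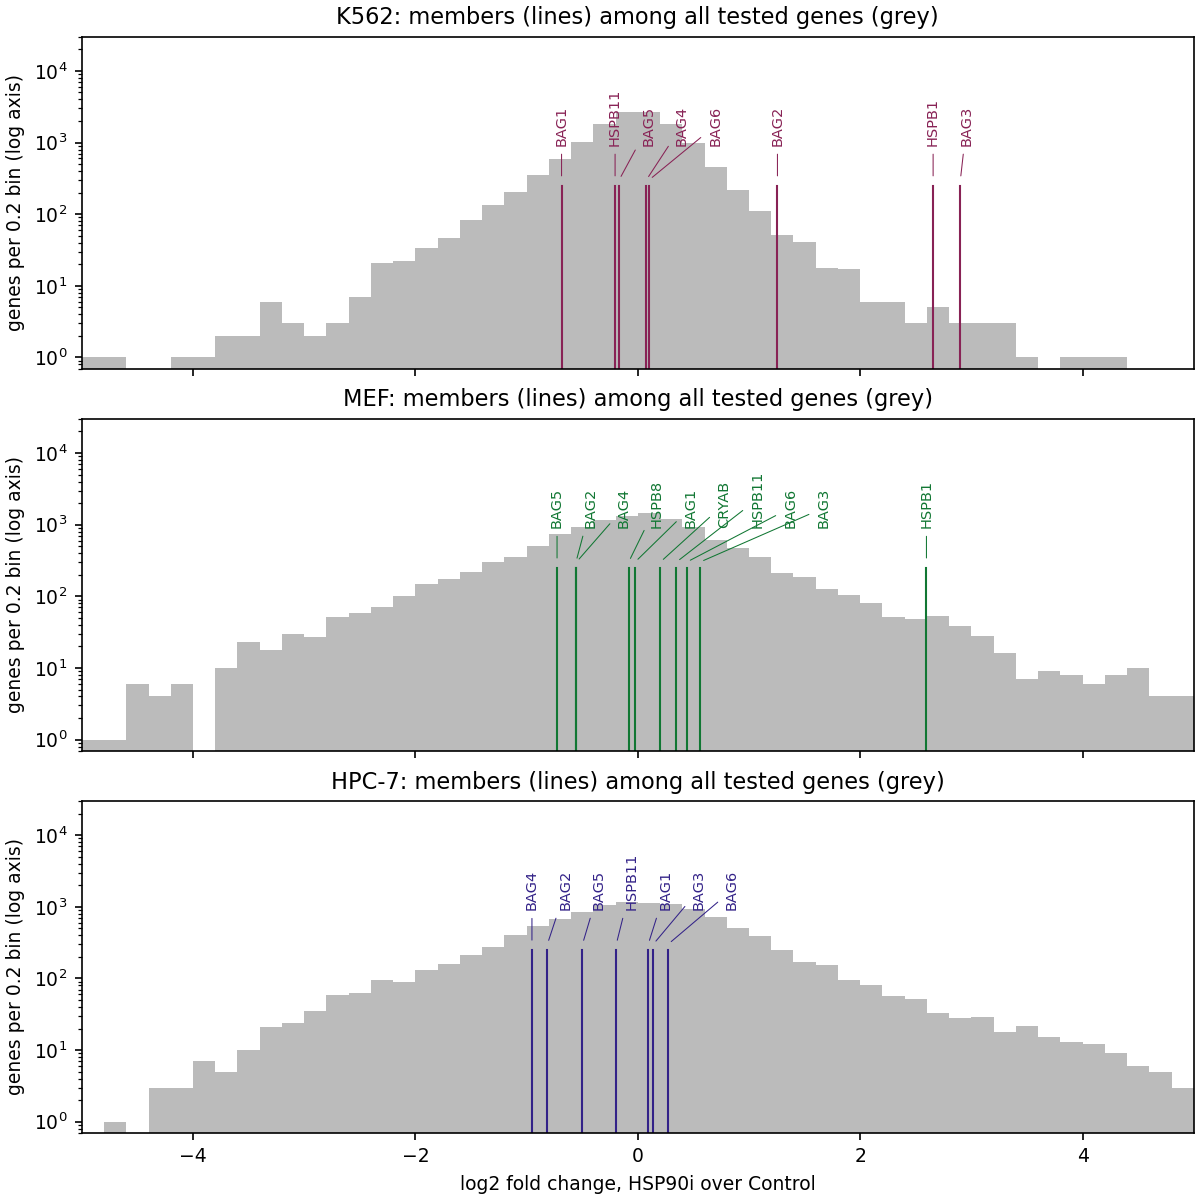
Distribution of log2 fold changes over all tested genes of each line (grey, genes per bin of 0.2 on a logarithmic axis), with a coloured line for each tested member other than K562 CRYAB. BAG3 and HSPB1 lie in the upper tail in K562, Hspb1 in that of MEF, and in HPC-7 the tested members lie between -0.95 and 0.27.

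The control levels of the mouse members were compared in 1 fit over the 12 mouse libraries. Of 7 tested members 4 differed between MEF and HPC-7 controls, 3 higher in MEF and 1 higher in HPC-7, and 83.2% of all 13720 tested genes differed. Bag3 was 5.95-fold higher in MEF (118.2 ± 8.57 against 19.9 ± 0.950 CPM in the joint scaling, log2 difference 2.57 ± 0.09, adjusted p = 1.45e-12, edgeR). Hspb11 was 2.02-fold higher in MEF (1.02 ± 0.16) and Bag2 1.60-fold higher (0.68 ± 0.09). Bag4 was 2.25-fold higher in HPC-7 (28.4 ± 2.21 CPM in MEF against 64.1 ± 1.86 CPM, -1.17 ± 0.08, adjusted p = 4.70e-09, edgeR). Bag1, Bag5 and Bag6 were not called, with log2 differences of 0.06 ± 0.08, 0.06 ± 0.08 and 0.09 ± 0.08, but all 3 were called higher in MEF with RLE factors and with DESeq2, and their sign turned when libraries were scaled by size alone. Without HPC-7 Control replicate 1 or 3 all 7 were called. Without HPC-7 Control replicate 2, Bag5 and Bag6 were called higher in MEF (0.24 and 0.27).

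Hspb1, Hspb8 and Cryab, at 0 in HPC-7, were well expressed in MEF. Against a floor of 3 counts over the HPC-7 group, Control levels in MEF were at least 1165-fold higher for Hspb1, at least 1426-fold higher for Hspb8 and at least 5400-fold higher for Cryab. After HSP90i the bound for Hspb1 was at least 6534-fold. The summed level of the 4 muscle markers, a tissue rich in these chaperones, was between 1.81 and 3.29 CPM in MEF and at most 0.686 CPM in HPC-7. The muscle regulator Myod1 was at 0 in both lines.

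The responses of MEF and HPC-7 were then compared by the interaction of line and treatment in the same fit. Of 7 tested members 5 differed, all with the higher value in MEF, and 43.2% of all 13720 genes differed. The difference, MEF minus HPC-7, was 0.54 ± 0.12 for Bag3 (adjusted p = 0.00264, edgeR), which rose in MEF and had no call in HPC-7. It was 0.52 ± 0.12 for Bag4 (adjusted p = 0.00269, edgeR) and 0.38 ± 0.12 for Bag2 (adjusted p = 0.0247), which fell in both lines and further in HPC-7. For Hspb11 and Bag6 it was 0.66 ± 0.24 (adjusted p = 0.0352) and 0.29 ± 0.11 (adjusted p = 0.0459). Bag5 (-0.11 ± 0.11, adjusted p = 0.477, or -0.34, adjusted p = 0.0379, without HPC-7 Control replicate 2) and Bag1 (-0.002 ± 0.11, adjusted p = 1) were not called. Scaling the lines together raised every MEF response, so that the median of all MEF genes went from -0.01 to 0.10. With each line scaled by its own factors, which was chosen after seeing the data, 2 members kept a call, Bag3 (0.42, adjusted p = 0.00792) and Bag4 (0.40, adjusted p = 0.00658). No call held against every left-out library, since Bag3 lost its call without HPC-7 Control replicate 1, 2 or 3 (adjusted p = 0.0544, 0.0680 and 0.102) and Bag4 without HPC-7 Control replicate 2 or 3 (adjusted p = 0.0558 and 0.0696).

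BAG3 and BAG1 compete for HSP70, and a ratio of their counts inside a library does not depend on the scaling. In K562 the ratio was 0.514, 0.549 and 0.698 in the controls and 6.94, 6.91 and 6.79 after HSP90i, an 11.8-fold shift. In MEF it was 0.846, 0.839 and 0.813 in the controls and 1.24, 1.32 and 1.18 after HSP90i, a 1.5-fold shift. In HPC-7 it was 0.139, 0.150 and 0.148 in the controls and 0.149, 0.167 and 0.134 after HSP90i, where the groups overlapped. In K562 and MEF every treated library was above every control, and both gave the smallest p that 3 against 3 libraries allow (0.1, exact permutation test, two-sided, 0.133 adjusted over 4 ratios). HPC-7 gave 0.8 by the same exact test. On the log2 scale the ratio went in K562 from -0.78 ± 0.23 to 2.78 ± 0.02 (SD, n = 3). The MEF values were -0.26 ± 0.03 and 0.32 ± 0.08, those of HPC-7 -2.78 ± 0.06 and -2.74 ± 0.16. The size of a ratio also carries the lengths of both transcripts, so only its change is read.

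**Figure D5:**
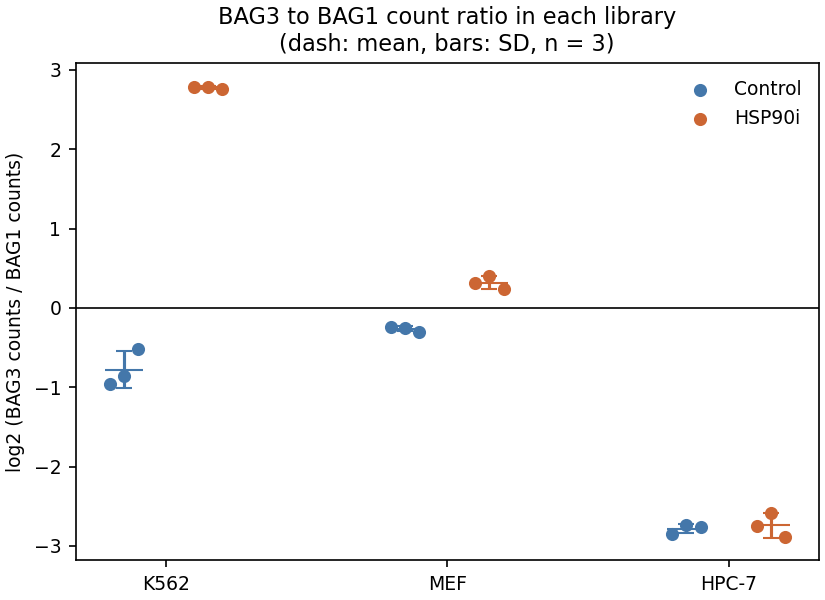
Log2 ratio of BAG3 to BAG1 counts in each library of the 3 lines, for Control (blue) and HSP90i (orange), with a dash at the mean and bars for the SD (n = 3). The ratio crosses 0 in K562 and MEF and stays near -2.8 in HPC-7.

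BAG3 and HSPB8 proteins form a stable complex, and only MEF had at least 3 reads for both genes in every library, the minimum set for a ratio. The ratio of Bag3 to Hspb8 counts was 1.25, 1.18 and 1.22 in the controls and 1.92, 1.89 and 1.88 after HSP90i. This was a shift of 1.56-fold with no overlap (exact permutation p = 0.1, two-sided, the smallest possible, 0.133 adjusted over 4 ratios).

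The remaining small heat shock protein genes were few in these cells. Of 7 (HSPB2, HSPB3, CRYAA, HSPB6, HSPB7, HSPB9 and ODF1), 1 could be tested in K562 or HPC-7 and 2 in MEF, and each of these was lower. HSPB3 in K562 was at 4.21 ± 1.89 CPM in the controls and 1.39 ± 0.34 CPM after HSP90i (-1.60 ± 0.38, adjusted p = 0.0317, edgeR, and -1.16 ± 0.30 without Control replicate 1). Hspb6 fell from 42.2 ± 1.29 to 19.7 ± 0.480 CPM in MEF (-1.10 ± 0.06) and from 5.81 ± 0.701 to 3.65 ± 0.555 CPM in HPC-7 (-0.65 ± 0.18). Hspb2 in MEF, given above, was the other. None of these few tested genes rose as HSPB1 did in K562 and MEF. With 1 or 2 per line, they show no trait of the family.

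Genes of the BAG3 route to autophagy were next counted in each line. This list of 10 holds the HSP70 HSPA8, the ligase CHIP (STUB1), autophagy adaptors and cargo-handling proteins. For K562, 5 of 9 tested genes were higher and 0 lower (median 0.45), for MEF 7 of 10 higher and 2 lower (median 0.51), for HPC-7 5 of 8 higher and 2 lower (median 0.75), beside medians of -0.02, -0.01 and -0.002 over all genes. Among all genes 5.11% were higher and 5.97% lower in K562, against 35.1% and 38.2% for MEF and 36.5% and 36.6% for HPC-7. Without K562 Control replicate 1, 7 of 9 were higher and 0 lower (median 0.50), SQSTM1 and VPS18 being added (adjusted p = 0.000864 and 0.000447, edgeR). VPS18 was named after its values were seen. HSPA8 rose by 3.91 ± 0.13, 2.52 ± 0.07 and 1.60 ± 0.08 (K562, MEF and HPC-7), and MAP1LC3B, which coats autophagosomes, by 0.43 ± 0.12, 1.14 ± 0.05 and 1.27 ± 0.08. The adaptor gene Sqstm1 (p62) rose by 0.95 ± 0.05 in MEF and 1.49 ± 0.09 in HPC-7, and was not called in K562 (adjusted p = 0.152, edgeR). DNAJB6, a J-domain partner of HSP70, rose by 1.49 ± 0.12, 0.57 ± 0.05 and 0.87 ± 0.08 (K562, MEF and HPC-7). Both genes lower in MEF were also those lower in HPC-7, Stub1 (-0.65 ± 0.07 and -0.69 ± 0.09) and the 14-3-3 gene Ywhag (-0.79 ± 0.04 and -0.78 ± 0.08). In K562 YWHAG was higher instead (0.55 ± 0.13, adjusted p = 0.0311, edgeR), and STUB1 was not called (-0.55 ± 0.26, adjusted p = 0.2235, edgeR). Stub1 was named after its values were seen. Synpo2 and Flnc, known from muscle, had no reads in HPC-7.

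Partners of BAG6 had 1 call in K562, and in MEF their counts were close to those of all genes. The 7 such genes act in the delivery of tail-anchored proteins or in their quality control. Of 7 tested in K562, 0 were higher and 1 lower (median -0.21), beside 5.11% and 5.97% over all genes. The lower gene was UBL4A (-0.86 ± 0.19), and without Control replicate 1 it was again the 1 call (-0.64 ± 0.11). In MEF 1 of 5 tested was higher (Sgta, 0.26 ± 0.06) and 2 lower (Rnf126, -0.56 ± 0.11, and Get4, -0.19 ± 0.06), with a median of -0.11, where 35.1% of all genes were higher and 38.2% lower. In HPC-7, where 36.5% and 36.6% of all genes were, 0 were higher and 4 of 5 lower (median -0.68), namely Wrb (-0.92 ± 0.11), Rnf126 (-0.91 ± 0.14), Get4 (-0.68 ± 0.10) and Asna1 (-0.59 ± 0.08).

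The other IFT-B genes, whose particle contains HSPB11, had 0 calls among 14 tested in K562 (median -0.004). Over all genes of that line 5.11% were higher and 5.97% lower. At an unadjusted p under 0.05 edgeR gave 1 on the list, TTC30B (0.87 ± 0.37), named after its values were seen. Without Control replicate 1 the count was again 0, beside 14% higher and 14.6% lower over all genes. In MEF 12 of 15 were higher and 1 lower (median 0.63, with 35.1% and 38.2% over all genes), with Ift172 at 1.22 ± 0.05, Ift46 at 0.84 ± 0.06 and Ift52 at 0.90 ± 0.07. In HPC-7 7 of 15 were higher and 3 lower (median 0.25), beside 36.5% and 36.6% over all genes. Ift172 was at 1.23 ± 0.09, while Ift27, whose protein pairs directly with that of Hspb11, was lower (-0.71 ± 0.13) and had risen in MEF (0.92 ± 0.12). Ift27 was named after its values were seen.

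A further 6 HSF1 targets served as a yardstick for the members. HSPA1A, HSPA1B, HSPH1, HSPA8, HSP90AA1 and DNAJB1 were all higher in K562 (median 4.13, or 4.10 without Control replicate 1) and in MEF (median 1.38). Over all genes 5.11% were higher in K562 and 35.1% in MEF. In HPC-7 5 of 6 were higher and 1 lower (median 1.27), beside 36.5% and 36.6% over all genes. The lower one was Hsp90aa1 (-0.62 ± 0.15), named after its values were seen. Hspa1a in HPC-7 went from 0.135 ± 0.0870 to 1.68 ± 0.769 CPM. Hspa1b, an inducible HSP70 gene, rose by 4.66 ± 0.32 in HPC-7 from 0.771 ± 0.0768 CPM, and Hsph1 by 0.94 ± 0.08. Hspa1a and Hspa1b entered the test there only through their treated libraries. Their place in the HPC-7 count and median was therefore set by the filter on low counts. Bag3, at 0.14 ± 0.11, was not called in that line. Reads of Hspa1a and Hspa1b, near-identical copies, cannot be assigned with certainty. Of these 6 genes 4 had promoter windows, 3 of which held a pair of inverted units and 1 a run of 3. Of all windows 15.1% held a pair and 0.603% a run of 3.

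The genes whose responses lay nearest to those of a member were found by the distance between log2 fold changes over the 3 lines, among 8321 genes tested in all of them and matched by symbol. For BAG3 the nearest were CHORDC1, an HSP90 co-chaperone gene (2.48, 0.69 and 0.34 in K562, MEF and HPC-7, distance 0.487), DNAJB1, which encodes an HSP40 (3.09, 0.21 and 0.44, distance 0.496), and DNAJA1 (distance 0.960). For BAG2, higher in K562 and lower in both mouse lines, they were ANXA1 (1.18, -0.81 and -0.83, distance 0.262), SPR (1.03, -0.50 and -0.60, distance 0.315) and PPID (1.15, -0.43 and -0.48, distance 0.380). The neighbours of BAG4 (TINF2, RNF121 and SRSF9, distances from 0.0295 to 0.0691), BAG5 (SNHG7, SUZ12 and EED, from 0.05 to 0.0679) and BAG6 (PYGB, MT-ND4 and PPT2, from 0.0271 to 0.0490) were closer. The distances are a description with no test.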

How the data were processed

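RNA-seq was available for 3 Control and 3 HSP90i libraries each of K562, MEF and HPC-7. Samples were grouped by title, and columns named DMSO were taken as the Control of that line and number. The authors deposited raw read counts for each gene, whole and not normalized. The submitters' processing notes name TopHat2 2.0.13, Bowtie2, featureCounts, Trim Galore, Picard, MACS2 and DESeq2. Their roles, the build behind the counts and the use of strand are not given in the sources used here.

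Genes were filtered with filterByExpr, scaled with TMM and tested within each line with edgeR 4.0.16 (R 4.3.3), using the quasi-likelihood test with Benjamini-Hochberg adjustment over all tested genes and a threshold of 0.05. Without the filter, low genes would add to the tests. The spread between replicates (biological coefficient of variation) was 0.172 for K562, 0.0835 for MEF and 0.0900 for HPC-7, so smaller changes passed in the mouse lines. The SE of a log2 fold change was derived from the quasi-likelihood F statistic. Interaction and control levels came from 1 fit over 12 mouse libraries. Ratios used a pseudocount of 0.5. No pair of libraries agreed within sampling noise.

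The members, gene lists, markers and tests were chosen with earlier results of these data known. Named genes were all members, up to 4 members of each list with the smallest p per line, and 3 neighbours of each tested member called in at least 2 lines. Procedures were tested on simulated data. Alternatives were RLE and upper quartile factors, library size alone, other filters on low counts, a replicate block, DESeq2 1.42.0, a joint mouse fit, each library left out and a pseudocount of 5. The K562 lists without Control replicate 1 were added after seeing the data. Promoter windows came from RefSeq (GRCm38.p6). Positions of human genes were not used here, so the planned reading of HSP90 ChIP-seq peaks near the members was not run. Figures were drawn with matplotlib 3.10.9.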

Additional observations from a re-analysis of the deposited data

Results flagged for a closer look

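The responses of 5 members differed between MEF and HPC-7 by the interaction of line and treatment, in a fit over 12 libraries, where dose and line cannot be told apart (edgeR's quasi-likelihood test, n = 3 per group). By the same test 43.2% of all 13720 genes differed. The differences, MEF minus HPC-7 on the log2 scale, were 0.66 for Hspb11 (adjusted p = 0.0352), 0.38 for Bag2 (adjusted p = 0.0247), 0.54 for Bag3 (adjusted p = 0.00264), 0.52 for Bag4 (adjusted p = 0.00269) and 0.29 for Bag6 (adjusted p = 0.0459). With each line scaled by its own factors Hspb11, Bag2 and Bag6 lost the call (adjusted p = 0.0864, 0.0931 and 0.193). Bag3 and Bag4 kept it there. Both lost it when certain HPC-7 Control libraries were left out singly (adjusted p up to 0.102 and 0.0696, edgeR).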

How the results depend on the processing

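Replicate numbers were shared by the groups, and whether they mark pairs was not tested. In K562 same-numbered libraries deviated together by r of 0.281, 0.0417 and 0.451, and differently numbered ones by -0.387 to 0.169. For MEF the same-numbered values were 0.268, -0.223 and -0.245, and the others lay between -0.31 and 0.383. For HPC-7 they were 0.0064, 0.0235 and -0.0898, and the others lay between -0.116 and 0.104. With the replicate block 5, 7 and 4 members were called in K562, MEF and HPC-7 against 4, 8 and 4. K562 BAG1 gained a call (-0.66, adjusted p = 0.0345), MEF Hspb11 lost it (0.36, adjusted p = 0.0730), the interaction of Bag6 lost it (0.29, adjusted p = 0.114) and that of Bag1 turned sign (0.0033, not called). The block changed no other call of a member. Leaving out 1 library gave 4 to 6 called members in K562, 7 to 8 in MEF and 3 to 4 in HPC-7, and 348 to 3917 called genes in K562 (1491 with all libraries, 3917 without Control replicate 1, 348 to 569 without Control replicate 2 or any treated library). For the interaction it gave 0 to 5 called members, with 3 without MEF Control replicate 1, MEF HSP90i replicate 3 or HPC-7 HSP90i replicate 2 or 3, 2 without MEF HSP90i replicate 1, 1 without HPC-7 Control replicate 1 (Bag4) or 2 (Bag5) and 0 without HPC-7 Control replicate 3, and for the control levels 4 to 7. The interaction had 2 called members with DESeq2, RLE factors, upper quartile factors, library size alone and each line's own factors, against 5, and the control levels 7 with RLE factors and DESeq2, against 4. Signs turned only in values with no call. K562 BAG4 went to -0.034 with library size alone and, with 1 library left out, lay between -0.019 (without Control replicate 1) and 0.226. MEF Bag1 went to 0.0036 with RLE factors and with library size alone, 0.076 with upper quartile factors, 0.0042 with DESeq2, and 0.088 in the joint fit, and with 1 library left out lay between -0.049 and 0.062 (without Control replicate 3), and Hspb8 to 0.020 with upper quartile factors and 0.032 in the joint fit. The Bag1 interaction was 0.012 with no filter, and between -0.235 and 0.091 with 1 library left out. It was positive without MEF Control replicate 3 (0.091), MEF HSP90i replicate 2 (0.021) or HPC-7 HSP90i replicate 1 (0.091). With library size alone the control differences of Bag1, Bag5 and Bag6 were -0.161, -0.155 and -0.127, and with 1 library left out that of Bag1 lay between -0.0019 (without MEF Control replicate 3) and 0.240. The HPC-7 ratio of Bag3 to Bag1 shifted by -0.042 without HSP90i replicate 2, and from -0.042 to 0.114 over left-out libraries. The causes were not tested. The peaks near human members were not run. Depth limits HSPB8 and CRYAB in K562 and the 3 members at 0 in HPC-7.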
